A study of Homo sapiens with 6 samples.

Results

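MYC, its obligate partner MAX and the factors that compete with MYC for MAX form one transcription network, and 10 of its genes were followed here among the 20036 genes of a deposited expression table. They are MYC, MAX, MXD1, MXD3, MXD4, MXI1, MNT, MGA, MYCBP and MYCBP2. They were chosen by name, for their place in the network, with earlier results of these data known. Every one was found in the table by its Ensembl identifier. All 10 averaged 1 FPKM or more over the libraries and so passed the filter on low values. The RNA came from MV411, a human acute myeloid leukaemia line with monocytic features known for an MLL fusion and an activated FLT3 kinase. The cells, labelled WT, were treated for 48 h with corilagin, a plant ellagitannin, or with its solvent control DMSO for 48 h, with 3 libraries in each group. No source used here gives the dose of corilagin. Nor do the labels say whether the 3 libraries of a group came from separate cultures, so a p-value speaks only for the spread among the libraries.

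MYC is a basic helix-loop-helix leucine zipper protein that binds DNA only as a dimer with MAX, at the E-box CACGTG and related letters, and raises the transcription of genes for ribosome assembly, nucleotide synthesis and cell cycle entry. The MXD proteins, MXI1 and MNT pair with the same MAX, bind the same E-boxes and bring the SIN3 histone deacetylase complex, while MGA pairs with MAX inside a Polycomb repressor complex. In myeloid cells MYC is known to fall and MXD1 to rise as cells leave the cycle and differentiate.

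Levels are in FPKM, that is, fragments scaled by gene length and by library total. Because steps in the FPKM give back whole fragments, depth could be read from them: it was 17776956 to 21640689 fragments per library, and each of the 10 genes had 338 to 6300 fragments in each library. Of 11 markers of monocytic leukaemia cells, 10 had a mean of at least 1 FPKM; the exception was CD68. T and NK cell markers were near 0 except NKG7, and no erythroid or fibroblast marker reached 1 FPKM. DMSO replicate 3 stood apart from the other DMSO libraries along the GC content of the transcripts. For the eighth of genes lowest in GC (31.3% to 39.2%), deviations from each gene's 6-library mean were read on the log2 scale. Their median was 0.24 in DMSO replicate 3 and 0.21 to 0.26 in the corilagin libraries. In DMSO replicates 1 and 2 it was -0.50 and -0.43. For that reason each member is given below also without DMSO replicate 3, against DMSO replicate 3 alone, and with each library's GC trend removed. The fit against DMSO replicate 3 alone takes its spread from the corilagin libraries, as if that lone library varied as they do.

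MYC fell and MXD1 rose in corilagin-treated cells, and the other 8 members did not pass the test. The test was limma on log2(FPKM + 1) with Benjamini-Hochberg adjustment over 9868 genes, with a threshold of 0.05; on this scale the changes of low genes are understated. Of the 10 members 1 was higher, against 11.9% of all genes tested, and 1 was lower, against 13.5% of all genes tested. The median log2 difference (corilagin minus DMSO throughout) was 0.02 over the members and 0.03 over all genes. Genes called higher were 46.8% of all genes called; with every library scaled to an equal FPKM sum they were 60.5% and the median over all genes was 0.14, and MXI1 also passed as higher (16.4% of all genes higher and 10.7% lower). Groups without overlap are a looser description. The corilagin libraries lay above every DMSO library for MXD1, MXI1 and MGA, and below every DMSO library for MYC. Among all genes tested, 25.0% lay above and 23.3% below in that sense. In bulk RNA, fewer cells with a transcript and less of it per cell cannot be told apart.

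**Figure D1:**
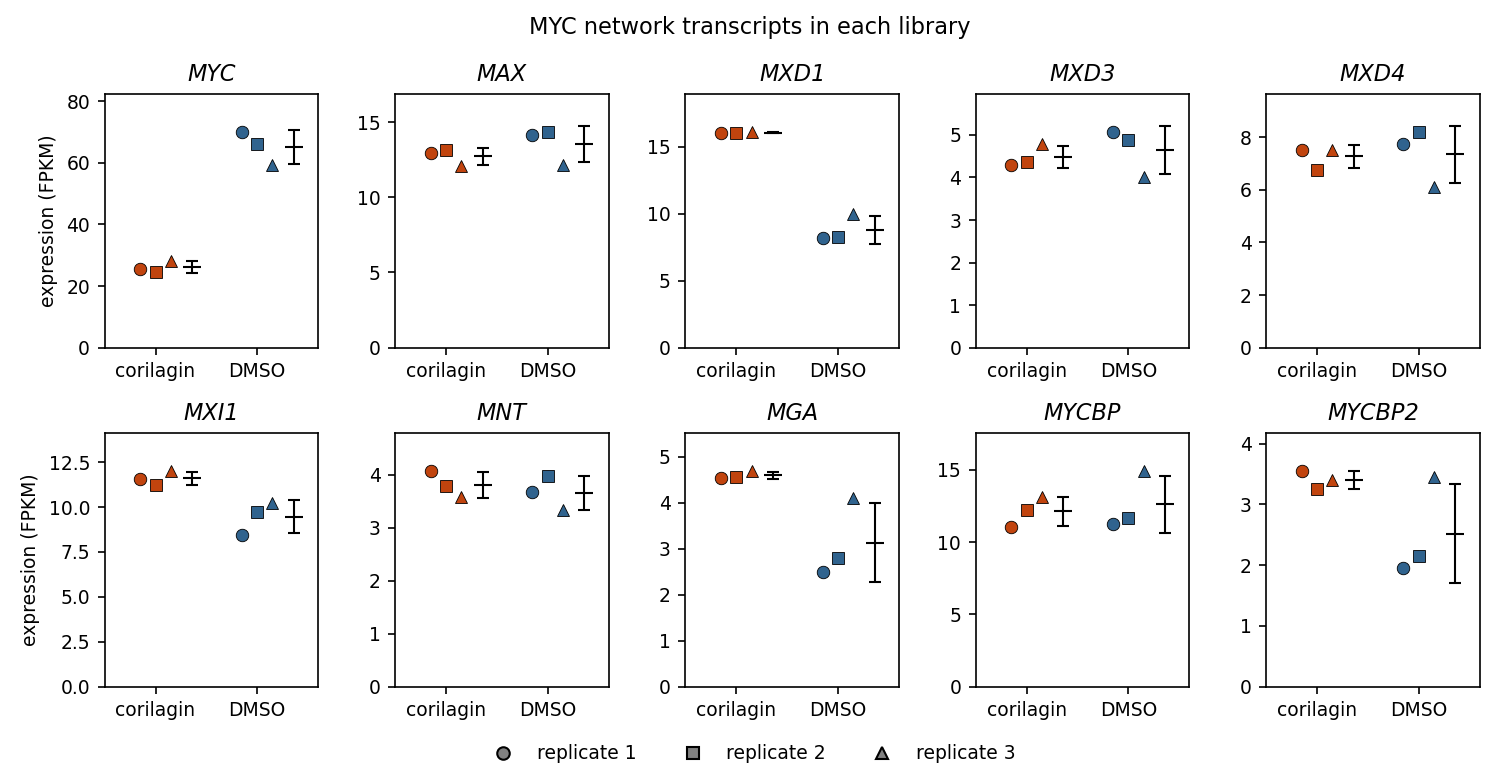
FPKM of the 10 network members in each library, on linear axes from 0, with the 3 corilagin libraries left of the 3 DMSO libraries in each gene's panel and the mean ± SD of each group as a bar beside its points. MYC lies at 24.5 to 28.3 FPKM in corilagin libraries and at 59.2 to 69.9 FPKM in DMSO libraries, while MXD1 lies at 16.1 FPKM in corilagin libraries and at 8.16 to 9.98 FPKM in DMSO libraries.

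MYC (ENSG00000136997; GRCh38 chromosome 8, 127735434 to 127741434, plus strand) is the activating member of the network. It had 25.6, 24.5 and 28.3 FPKM in corilagin libraries, against 69.9, 66.2 and 59.2 FPKM in DMSO libraries. Every corilagin library was far below every DMSO library, and the lowest DMSO value was that of replicate 3. The mean was 26.1 ± 1.93 FPKM with corilagin and 65.1 ± 5.44 FPKM with DMSO (SD, n = 3 each), a ratio of 0.401. The log2 difference was -1.28 (SE 0.0951, 95% interval -1.51 to -1.06, adjusted p = 0.00117 by limma). MYC was the member with the highest FPKM in both groups. These values rest on 2199 to 2537 fragments per corilagin library and 4824 to 6300 per DMSO library, so counting error is small beside the spread between libraries. Its log2 difference was -1.35 without DMSO replicate 3 (adjusted p = 6.44e-09, limma), -1.15 against DMSO replicate 3 alone (adjusted p = 1.78e-06) and -1.17 with the GC trend removed (adjusted p = 1.97e-05).

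MAX (ENSG00000125952; chromosome 14, 65006174 to 65102695, minus strand) is the partner that both MYC and its antagonists need to bind DNA. Its level was 12.9, 13.2 and 12.1 FPKM in corilagin libraries, against 14.2, 14.3 and 12.1 FPKM in DMSO libraries. The groups overlapped, with DMSO replicate 3 at the level of the corilagin libraries. On the log2 scale the difference was -0.08 (95% interval -0.30 to 0.14, adjusted p = 0.504, limma), and the interval leaves room for modest change in either direction. It was -0.15 without DMSO replicate 3 (adjusted p = 0.0163), where 36.5% of all genes were called lower, 0.06 against DMSO replicate 3 alone (adjusted p = 0.495) and -0.01 with the GC trend removed (adjusted p = 0.894). MAX overlaps FNTB, which lies on the opposite strand and had a mean of 1.48 FPKM.

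MXD1 (ENSG00000059728; chromosome 2, 69897688 to 69942945, plus strand), also called MAD1, is the antagonist best known from myeloid differentiation. It had 16.1 FPKM in each of the 3 corilagin libraries, against 8.16, 8.25 and 9.98 FPKM in DMSO libraries. The corilagin libraries were all above the DMSO libraries, of which replicate 3 was the highest. They were nearly identical to one another, closer than counting error alone would lead one to expect from 1871 to 2209 fragments per library. Their small SD is therefore no measure of reproducibility. The mean was 16.1 ± 0.0209 FPKM with corilagin and 8.80 ± 1.03 FPKM with DMSO (SD, n = 3 each), a ratio of 1.83. In log2 terms the difference was 0.81 (SE 0.0954, 95% interval 0.58 to 1.03, adjusted p = 0.00373 by limma). MXD1 is fairly low in GC (42.7%), the range in which DMSO replicates 1 and 2 read low, and its ratio was 1.96 over these libraries but 1.61 over DMSO replicate 3. The log2 difference was 0.89 without DMSO replicate 3 (adjusted p = 1.99e-08, limma), 0.64 against it alone (adjusted p = 1.90e-05) and 0.58 with the GC trend removed (adjusted p = 0.000103). MXD1 shares annotated bases with SNRNP27 on the same strand, a splicing gene at a mean of 15.3 FPKM over all libraries, and no source used here says how fragments in the shared bases were assigned.

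**Figure D2:**
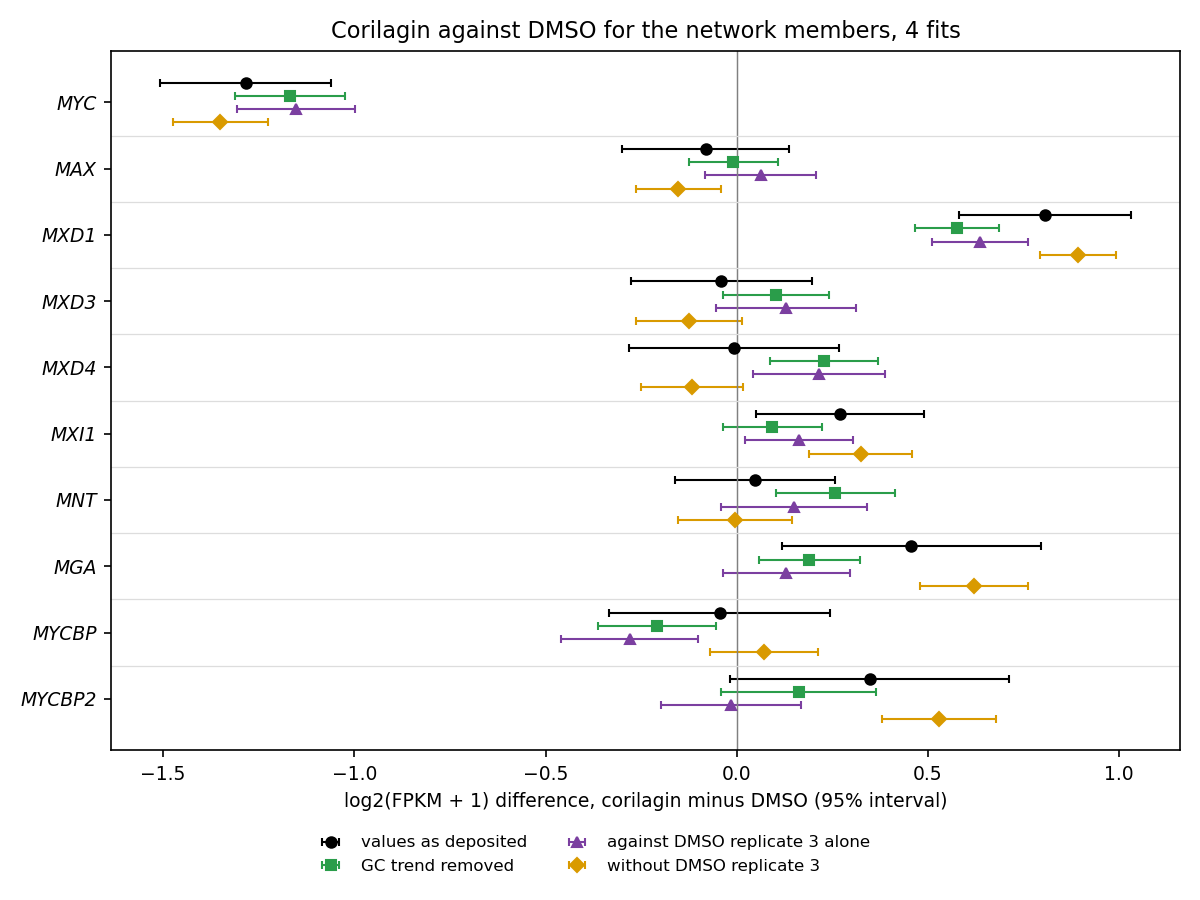
Log2 difference in log2(FPKM + 1), corilagin minus DMSO, for each member in 4 fits with their 95% intervals from limma: values as deposited, GC trend removed, against DMSO replicate 3 alone and without DMSO replicate 3. MYC stays between -1.35 and -1.15 and MXD1 between 0.58 and 0.89 in these 4 fits, while MGA spans 0.13 to 0.62 and MYCBP2 spans -0.02 to 0.53.

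MXI1 (ENSG00000119950; chromosome 10, 110207605 to 110287365, plus strand), or MXD2, is the antagonist closest in kind to MXD1. Its level was 11.6, 11.2 and 12.0 FPKM in corilagin libraries, against 8.45, 9.71 and 10.2 FPKM in DMSO libraries. All corilagin libraries were above all DMSO libraries, by a small margin over DMSO replicate 3. The mean was 11.6 ± 0.384 FPKM with corilagin and 9.47 ± 0.924 FPKM with DMSO (SD, n = 3 each), and the log2 difference of 0.27 missed the threshold (95% interval 0.05 to 0.49, adjusted p = 0.0678, limma). It was 0.32 without DMSO replicate 3 (adjusted p = 0.000505), 0.16 against it alone (adjusted p = 0.0677) and 0.09 with the GC trend removed (adjusted p = 0.202).

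MGA (ENSG00000174197; chromosome 15, 41621224 to 41773081, plus strand) encodes a very large MAX partner that also carries a T-box domain. It had 4.54, 4.55 and 4.68 FPKM in corilagin libraries, against 2.48, 2.80 and 4.11 FPKM in DMSO libraries. The groups did not overlap, but DMSO replicate 3 was far closer to the corilagin libraries than to the other DMSO libraries. Its log2 difference was 0.46 (95% interval 0.12 to 0.80, adjusted p = 0.0555, limma). The ratio of corilagin to DMSO was 1.74 over DMSO replicates 1 and 2 and 1.12 over DMSO replicate 3, so one library decides this value. On the log2 scale the difference was 0.62 without DMSO replicate 3 (adjusted p = 4.30e-06, limma), 0.13 against it alone (adjusted p = 0.203) and 0.19 with the GC trend removed (adjusted p = 0.0277).

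MNT (ENSG00000070444; chromosome 17, 2384060 to 2401118, minus strand) is the antagonist made in proliferating and resting cells alike. It had 4.07, 3.79 and 3.57 FPKM in corilagin libraries, against 3.68, 3.97 and 3.33 FPKM in DMSO libraries. The groups overlapped and the log2 difference was 0.05 (95% interval -0.16 to 0.26, adjusted p = 0.693, limma). MNT is rich in GC (61.4%), and with the GC trend removed its log2 difference was 0.26 (adjusted p = 0.0165), in a fit that called 21.8% of all genes higher and 23.2% lower. It was -0.0046 without DMSO replicate 3 (adjusted p = 0.954) and 0.15 against that library alone (adjusted p = 0.196).

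MXD4 (ENSG00000123933; chromosome 4, 2247432 to 2262294, minus strand), or MAD4, is another SIN3-binding antagonist. It had 7.52, 6.75 and 7.52 FPKM in corilagin libraries, against 7.74, 8.18 and 6.11 FPKM in DMSO libraries. DMSO replicate 3 was the lowest library of all and DMSO replicate 2 the highest, so the groups overlapped. In log2 terms the difference was -0.01 (95% interval -0.28 to 0.27, adjusted p = 0.965, limma). For this member, the richest in GC (64.0%), it was 0.23 with the GC trend removed (adjusted p = 0.0179) and 0.21 against DMSO replicate 3 alone (adjusted p = 0.0504), but -0.12 without that library (adjusted p = 0.0965).

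MXD3 (ENSG00000213347; chromosome 5, 177301461 to 177312757, minus strand) is the MXD protein that in mouse is known from cells in S phase. It had 4.30, 4.36 and 4.78 FPKM in corilagin libraries, against 5.06, 4.89 and 4.01 FPKM in DMSO libraries. DMSO replicate 3 was the lowest library and the groups overlapped. The log2 difference was -0.04 (95% interval -0.28 to 0.20, adjusted p = 0.766, limma), and 0.10 with the GC trend removed (adjusted p = 0.194). Without DMSO replicate 3 it was -0.13 (adjusted p = 0.0877), and against that library alone 0.13 (adjusted p = 0.246). MXD3 overlaps RAB24 and, on the opposite strand, PRELID1, which had a mean of 27.3 FPKM; no protocol text states stranded libraries, so reads of MXD3 and PRELID1 in shared bases cannot be told apart.

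MYCBP (ENSG00000214114; chromosome 1, 38862964 to 38874105, minus strand) encodes a small protein that binds the amino-terminal part of MYC. It had 11.1, 12.2 and 13.1 FPKM in corilagin libraries, against 11.2, 11.7 and 14.9 FPKM in DMSO libraries. The groups overlapped and DMSO replicate 3 was the highest library. Its log2 difference was -0.05 (95% interval -0.34 to 0.24, adjusted p = 0.785, limma), but -0.28 against DMSO replicate 3 alone (adjusted p = 0.0196) and -0.21 with the GC trend removed (adjusted p = 0.0362). Without DMSO replicate 3 it was 0.07 (adjusted p = 0.320).

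MYCBP2 (ENSG00000005810; chromosome 13, 77044655 to 77327050, minus strand) encodes a giant ubiquitin ligase that was found as a MYC-binding protein and is best known from axon growth. Its level was 3.54, 3.25 and 3.41 FPKM in corilagin libraries, against 1.95, 2.16 and 3.45 FPKM in DMSO libraries. DMSO replicate 3 lay among the corilagin libraries, well above DMSO replicates 1 and 2. On the log2 scale the difference was 0.35 (95% interval -0.02 to 0.71, adjusted p = 0.123, limma). The ratio of corilagin to DMSO was 1.66 over DMSO replicates 1 and 2 and 0.987 over DMSO replicate 3. In log2 terms the difference was 0.53 without DMSO replicate 3 (adjusted p = 2.38e-05), -0.02 against it alone (adjusted p = 0.907) and 0.16 with the GC trend removed (adjusted p = 0.163).

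The gap between DMSO libraries sorted the members by GC content. The log2 gap of DMSO replicate 3 over the mean of DMSO replicates 1 and 2 was 0.25 for MXD1, 0.16 for MXI1, 0.49 for MGA, 0.35 for MYCBP and 0.54 for MYCBP2, whose transcripts have 42.0% to 44.0% GC. It was -0.20 for MYC, -0.22 for MAX, -0.25 for MXD3, -0.33 for MXD4 and -0.16 for MNT, whose transcripts have 51.3% to 64.0% GC. With the GC trend removed, 4 members were higher with corilagin (MXD1, MNT, MXD4 and MGA; 21.8% of all genes) and 2 were lower (MYC and MYCBP; 23.2% of all genes). Without DMSO replicate 3, 4 were higher (MYCBP2, MXD1, MXI1 and MGA), where 40.8% of all genes were called higher, and 2 were lower (MAX and MYC; 36.5% of all genes). Against DMSO replicate 3 alone, 1 was higher (MXD1; 19.4% of all genes) and 2 were lower (MYC and MYCBP; 18.6% of all genes). MYC and MXD1 passed the test in the same direction in each of these fits. The part of GC-dependent recovery in the values of the other members was not tested.

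**Figure D3:**
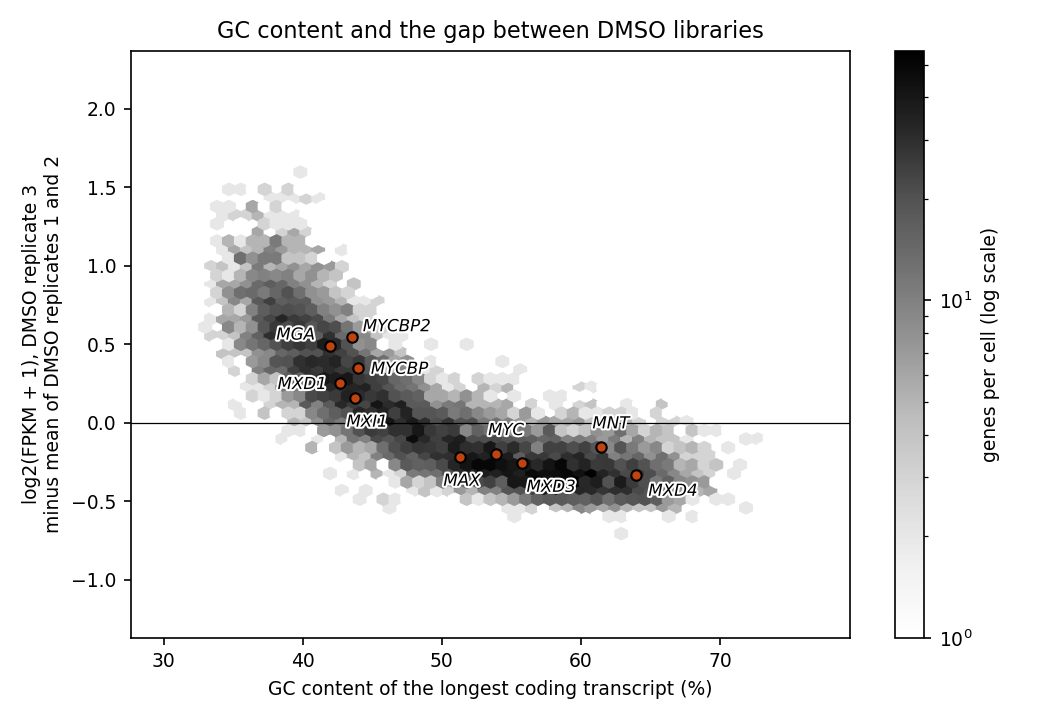
GC content of each gene's longest coding transcript (horizontal, percent) against the gap in log2(FPKM + 1) between DMSO replicate 3 and the mean of DMSO replicates 1 and 2 (vertical), with the density of all genes in grey and the 10 members as points. Members with 42.0% to 44.0% GC lie above 0 and members with 51.3% to 64.0% GC lie below 0, along the trend of all genes.

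The order of the levels differed between the groups mainly in the place of MXD1. With corilagin the order was MYC, MXD1, MAX, MYCBP, MXI1, MXD4, MGA, MXD3, MNT and MYCBP2. Of these neighbours, the libraries of MAX and MYCBP, of MYCBP and MXI1, and of MGA and MXD3 overlapped. With DMSO the order was MYC, MAX, MYCBP, MXI1, MXD1, MXD4, MXD3, MNT, MGA and MYCBP2. There MAX overlapped with MYCBP, MXI1 with MXD1, MXD1 with MXD4, MNT with MGA, and MGA with MYCBP2. MXD1 was thus the second most abundant member at 16.1 FPKM with corilagin and the fifth at 8.80 FPKM with DMSO. Levels between genes depend on the gene lengths behind the FPKM, which came out as 4584 bases for MYC, 6257 for MAX and 34127 for MYCBP2, against 3001, 4430 and 15945 exonic bases in GENCODE 29. MXD1 had 6351 bases in both.

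MYC and its antagonists can also be set side by side within each library. In ratios and shares the library's scaling cancels, but in summed FPKM it does not; all rest on members already known to differ and are given as a description. The ratio of MYC to MAX was 1.98, 1.86 and 2.34 in corilagin libraries, against 4.94, 4.62 and 4.88 in DMSO libraries. It averaged 2.06 ± 0.250 with corilagin and 4.81 ± 0.167 with DMSO (SD, n = 3 each), and the groups were far apart, DMSO replicate 3 included. The summed level of the MAX-binding antagonists (MXD1, MXD3, MXD4, MXI1, MNT and MGA) was 48.1, 46.7 and 48.6 FPKM in corilagin libraries, against 35.6, 37.8 and 37.8 FPKM in DMSO libraries. All corilagin sums were above all DMSO sums, as deposited; FPKM over all genes summed to 233342 to 236861 in corilagin libraries and 239068 to 266660 in DMSO libraries.

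MYC made up 34.7%, 34.4% and 36.8% of the FPKM of MYC and these antagonists in corilagin libraries, against 66.3%, 63.7% and 61.0% in DMSO libraries. At the gene lengths behind the FPKM, MYC transcripts therefore outnumbered the antagonists' transcripts per length in every DMSO library and in no corilagin library. With the GC trend removed, the mean share was 36.9% with corilagin and 62.4% with DMSO. The ratio of MXD1 to MYC was 0.628, 0.655 and 0.570 in corilagin libraries, against 0.117, 0.125 and 0.169 in DMSO libraries. Within the antagonists' sum, MXD1 held 33.6% ± 0.653 with corilagin and 23.7% ± 2.39 with DMSO (SD, n = 3 each). An exact permutation test of 3 against 3 libraries cannot give a p below 0.1, so none is given for these shares. Other gene lengths would rescale each gene alike in all libraries, but not all genes by the same factor, so the shares and ratios would move. RNA levels do not show how much of each protein was bound to MAX.

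**Figure D4:**
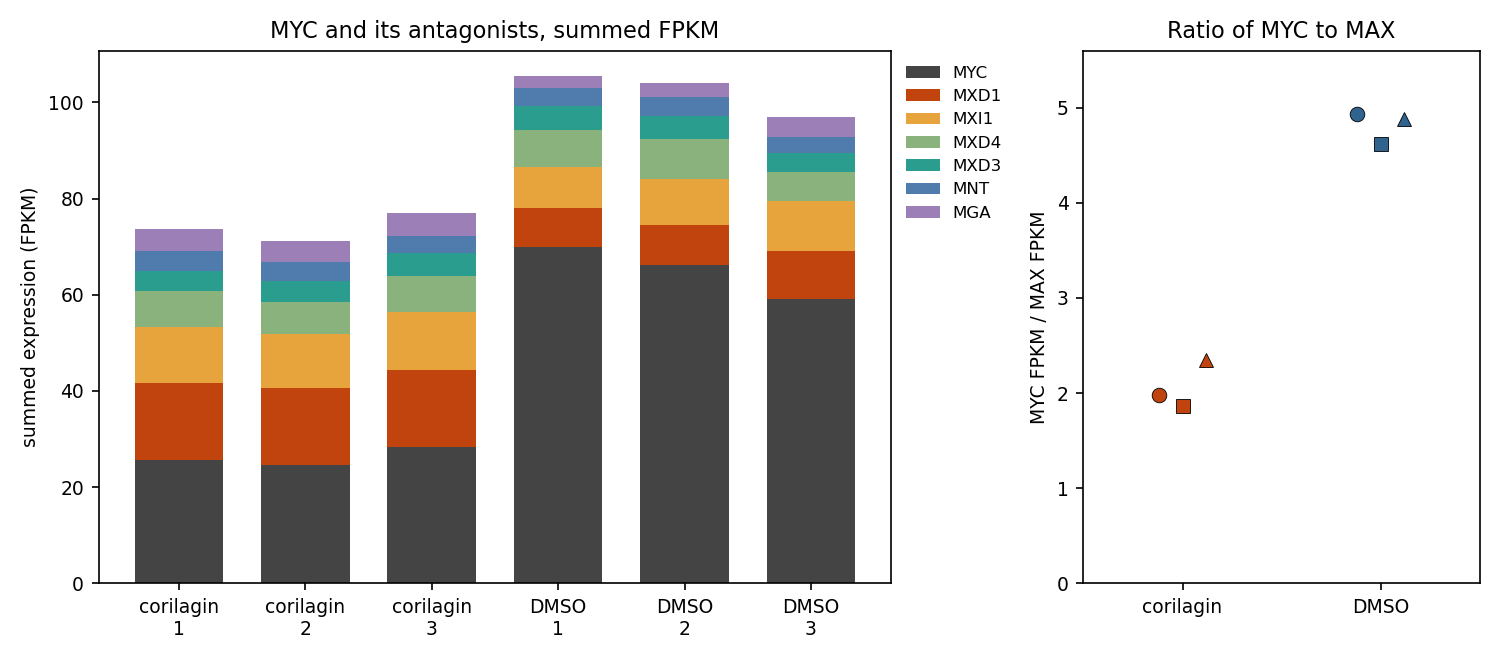
Left, stacked bars of the FPKM of MYC (bottom) and its 6 MAX-binding antagonists in each library, corilagin libraries first; right, the ratio of MYC to MAX per library. MYC fills 34.4% to 36.8% of the bar with corilagin and 61.0% to 66.3% with DMSO, and the ratio lies at 1.86 to 2.34 with corilagin and at 4.62 to 4.94 with DMSO.

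The sequences before the start sites of the antagonists were searched for the E-box CACGTG, because MYC and its antagonists bind the same letters and these genes are themselves part of the network. The motif is its own reverse complement, so a match counts for both strands. Windows of 250 bases before each RefSeq start (GRCh38.p14) were read for 9 of the members. No window was at hand for MYC, so MYC was not searched. The letters stood in the windows of MXD4 and MNT, 2 of 9 members, while 7.73% of 27305 genes had them. MXD4 and MNT did not pass the test, and MXD1, which rose, had no CACGTG in its window. That window lies inside the GENCODE 29 span of MXD1, downstream of the span's start at 69897688, and the bases before that start were not searched. No match says only that these letters are not in these windows. Stretches of these windows outside annotated exons follow, 5′ to 3′ on the gene's strand, with the E-box in capitals. MXD4 is chr4:2262295-2262359 (minus strand), MNT is chr17:2401211-2401310 (minus strand), and MXD1 is chr2:69914859-69915040 (plus strand).
MXD4: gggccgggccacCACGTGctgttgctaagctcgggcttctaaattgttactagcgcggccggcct
MNT: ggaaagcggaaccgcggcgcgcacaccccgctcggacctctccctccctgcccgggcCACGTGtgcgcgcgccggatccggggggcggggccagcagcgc
MXD1: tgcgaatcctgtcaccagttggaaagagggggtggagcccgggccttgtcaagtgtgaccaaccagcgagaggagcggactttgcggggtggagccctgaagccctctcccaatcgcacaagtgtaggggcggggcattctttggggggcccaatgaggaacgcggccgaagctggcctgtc
The E-box of MXD4 begins 238 bases before its start and that of MNT 193 bases before its start.

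The wider network of MAX and its relative MLX was read from 8 listed genes, of which 5 passed the filter on low values; 1 of these was lower and none higher, beside 13.5% lower and 11.9% higher over all genes. Leaving out corilagin replicate 1 or 2 gave 0 lower, and leaving out DMSO replicate 3 gave 4 lower. For the lists that follow, the background under such omissions is 131 to 369 genes higher and 176 to 483 lower over all 9868 genes without any 1 library other than DMSO replicate 3, and 4030 higher and 3597 lower without DMSO replicate 3. TFAP4, an E-box factor that MYC is known to activate, had 1.52 ± 0.128 FPKM with corilagin and 2.95 ± 0.404 FPKM with DMSO (SD, n = 3 each), a log2 difference of -0.65 (adjusted p = 0.00804, limma). MLX, the MAX-like partner that MXD1, MXD4 and MNT can also bind, had 14.5 ± 0.145 FPKM with corilagin and 16.0 ± 1.32 FPKM with DMSO, which did not pass the test (-0.13, adjusted p = 0.258). MLXIP, or MondoA, a sugar-sensing partner of MLX, had 8.05 ± 0.340 FPKM with corilagin and 9.01 ± 0.632 FPKM with DMSO, also short of the threshold (-0.15, adjusted p = 0.216). MLXIPL, or ChREBP, was left out by the filter on low values, at 0.408 ± 0.0225 FPKM with corilagin and 1.03 ± 0.126 FPKM with DMSO. Its corilagin libraries lay below every DMSO library, as for 23.3% of all genes tested. Without the filter, 2 of the listed relatives were called lower, where 1026 of 15921 genes were lower. The E-box factors USF1 and USF2 missed the threshold, with log2 differences of -0.02 (adjusted p = 0.866) and -0.10 (adjusted p = 0.531). Of the other MYC family genes, MYCN was listed at 0 in every library, and MYCL was low, at 0.659 ± 0.0380 FPKM with corilagin and 0.594 ± 0.0900 FPKM with DMSO.

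The cofactors that MYC and its antagonists recruit were mostly short of the threshold: of 38 genes, 2 were higher, 5 were lower and 31 did not pass, with a median log2 difference of -0.04 against 0.03 over all genes. Over all genes, 11.9% were higher and 13.5% lower, so the lower count was near its share and the higher count was under it. The cofactor counts were 11 higher and 18 lower without DMSO replicate 3, and 0 higher and 1 to 2 lower without any other library. The largest falls were those of RUVBL2 and RUVBL1, the paired ATPases of the chromatin complexes that MYC recruits. RUVBL2 had 39.8 ± 1.76 FPKM with corilagin and 73.1 ± 14.5 FPKM with DMSO (log2 difference -0.84, adjusted p = 0.0121, limma). RUVBL1 had 18.6 ± 0.241 FPKM with corilagin and 29.6 ± 1.94 FPKM with DMSO (log2 difference -0.64, adjusted p = 0.00430). The rises were those of ARID4B, a subunit of the SIN3 complex, and RNF2, a Polycomb ubiquitin ligase. ARID4B had 8.84 ± 0.137 FPKM with corilagin and 4.29 ± 2.61 FPKM with DMSO, where replicate 3 alone reached 7.29 FPKM (log2 difference 1.0, adjusted p = 0.0452). RNF2 had 10.5 ± 0.389 FPKM with corilagin and 7.16 ± 1.93 FPKM with DMSO, with 9.39 FPKM in replicate 3 (log2 difference 0.53, adjusted p = 0.0496); with the GC trend removed it was 0.09 (adjusted p = 0.213). With the GC trend removed, 4 cofactors were higher and 14 lower, in the fit that called 21.8% of all genes higher and 23.2% lower.

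Of 25 tested genes that control the stability of the MYC protein, 4 were higher, 2 lower and 19 did not pass, with a median log2 difference of -0.09. That is near the shares over all genes, 11.9% higher and 13.5% lower. The counts were 11 higher and 11 lower without DMSO replicate 3, and 1 to 2 higher and 0 lower without any other library. GSK3B, the kinase that marks MYC for destruction, had 13.9 ± 0.358 FPKM with corilagin and 8.90 ± 1.31 FPKM with DMSO (log2 difference 0.60, adjusted p = 0.0129, limma). FBXO32, a ubiquitin ligase subunit reported to target MYC, had 4.46 ± 0.204 FPKM with corilagin and 2.64 ± 0.0888 FPKM with DMSO (log2 difference 0.59, adjusted p = 0.00478). The falls were those of PLK1, a mitotic kinase known to stabilise MYC, and HUWE1, a ubiquitin ligase that acts on MYC. PLK1 had 22.1 ± 0.896 FPKM with corilagin and 33.0 ± 5.77 FPKM with DMSO (log2 difference -0.55, adjusted p = 0.0289). HUWE1 had 31.3 ± 0.919 FPKM with corilagin and 39.3 ± 3.77 FPKM with DMSO (log2 difference -0.32, adjusted p = 0.0443).

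Genes known as MYC-activated were mostly lower. Of 66 listed genes 64 were tested: 46 were lower, 2 were higher and 16 did not pass, with a median log2 difference of -0.54 against 0.03 over all genes. Over all genes, 13.5% were lower and 11.9% higher. Against DMSO replicate 3 alone 56 were lower and 3 higher (18.6% of all genes lower and 19.4% higher), and with the GC trend removed again 56 were lower and 3 higher (23.2% of all genes lower and 21.8% higher). The count of lower genes was 13, 13 and 15 without corilagin replicates 1, 2 and 3, and 33, 22 and 51 without DMSO replicates 1, 2 and 3. That of higher genes was 7 without DMSO replicate 3 and 1 without any other library. The list was chosen with earlier results of these libraries known, so its direction is no independent evidence. SRM, the spermidine synthase, had 25.1 ± 1.33 FPKM with corilagin and 59.0 ± 10.9 FPKM with DMSO (SD, n = 3 each; log2 difference -1.18, adjusted p = 0.00389, limma). DUSP2, a nuclear phosphatase of MAP kinases, had 5.37 ± 0.800 FPKM with corilagin and 12.8 ± 0.920 FPKM with DMSO (log2 difference -1.12, adjusted p = 0.00273). The genes that rose were TMEM97 and HK2. TMEM97, a sterol-regulated membrane protein gene, had 50.6 ± 0.679 FPKM with corilagin and 26.2 ± 1.07 FPKM with DMSO (log2 difference 0.93, adjusted p = 0.00142). HK2, a hexokinase, had 17.0 ± 0.194 FPKM with corilagin and 13.8 ± 0.439 FPKM with DMSO (log2 difference 0.28, adjusted p = 0.0336).

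Of 15 listed genes known as MYC-repressed, 11 were tested: 5 were higher, 1 was lower and 5 did not pass, with a median log2 difference of 0.38 against 0.03 over all genes. Over all genes, 11.9% were higher and 13.5% lower. The counts were 7 higher and 3 lower without DMSO replicate 3, and 4 higher and 0 lower without any other library. CDKN1A, the cell cycle inhibitor p21, had 38.1 ± 2.22 FPKM with corilagin and 5.17 ± 1.44 FPKM with DMSO (SD, n = 3 each; log2 difference 2.69, adjusted p = 0.00101, limma). TXNIP, which limits glucose uptake, had 70.6 ± 2.14 FPKM with corilagin and 31.3 ± 3.43 FPKM with DMSO (log2 difference 1.15, adjusted p = 0.00189). GADD45B, a stress response gene, was the exception at 10.2 ± 0.308 FPKM with corilagin and 12.5 ± 0.370 FPKM with DMSO (log2 difference -0.27, adjusted p = 0.0392); with the GC trend removed its log2 difference was -0.11 (adjusted p = 0.238).

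**Figure D5:**
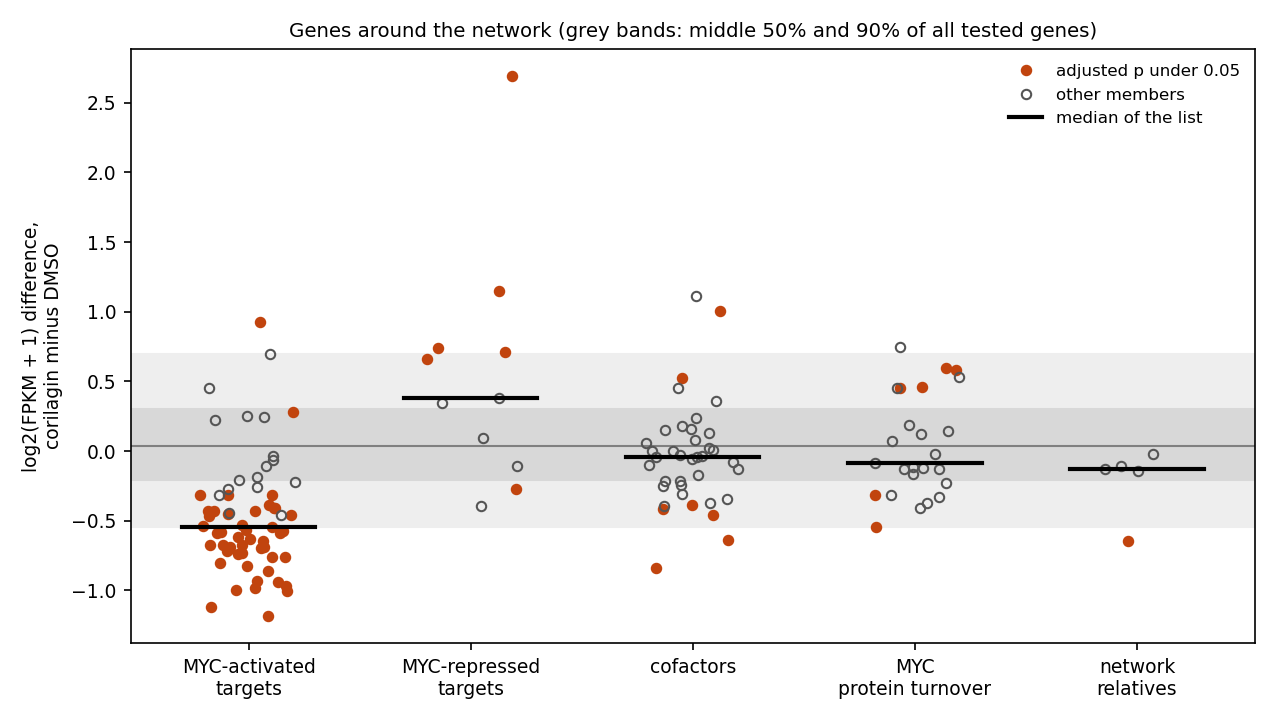
Log2 difference (corilagin minus DMSO, log2(FPKM + 1)) of each tested gene in the lists of known targets, cofactors, turnover factors and network relatives, with list medians as black bars, genes past the threshold filled, and grey bands for the middle of all tested genes. The MYC-activated genes centre on -0.54 and the MYC-repressed genes on 0.38, while the cofactors centre on -0.04 and the turnover factors on -0.09.

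The genes whose pattern over the 6 libraries was most like that of MYC were found by the root mean square difference of log2(FPKM + 1) after centring each gene, among 6569 genes that averaged 5 FPKM or more. This measure picks genes of like change, so it is a description with no test. The nearest was WDR4, a subunit of a tRNA methyltransferase, at a difference of 0.0359. It had 3.52 ± 0.369 FPKM with corilagin and 10.2 ± 1.24 FPKM with DMSO (SD, n = 3 each). Next came FKBP4, a cochaperone of HSP90 (0.0888; 13.8 ± 0.941 FPKM with corilagin and 37.7 ± 5.15 FPKM with DMSO). TRIM14, an adaptor of antiviral signalling, followed at 0.0930, with 5.02 ± 0.0708 FPKM with corilagin and 13.0 ± 1.55 FPKM with DMSO. PODXL2, a sialomucin, stood at 0.108, with 23.3 ± 0.658 FPKM with corilagin and 61.7 ± 8.74 FPKM with DMSO. MFSD3, a membrane transporter of the major facilitator kind, stood at 0.112, with 5.48 ± 0.559 FPKM with corilagin and 15.1 ± 2.50 FPKM with DMSO. The median over all genes compared was 0.657.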

How the data were processed

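Poly(A) RNA of MV411 cells was sequenced in 3 corilagin and 3 DMSO libraries. The authors deposited 1 table of FPKM for 20036 genes; the submitters' processing notes name fastp 0.22.0, HISAT2 2.1.0, HTSeq 0.9.1, DESeq 1.38.3 and GRCh38, but no settings or annotation release. FPKM values proved to be whole multiples of 1 fragment for all 15921 genes above 0 (tolerance 0.01), with gene lengths in whole bases; the recovered fragments gave 99.59% to 99.61% of the totals implied. A value listed at 0 need not mean that no transcript was made. No 2 libraries agreed within counting error (lowest chi-square 2.40 per gene).

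The 9868 genes averaging 1 FPKM or more were tested with limma 3.58.1 (R 4.3.3, empirical Bayes, Benjamini-Hochberg threshold 0.05) on log2(FPKM + 1), two-sided, without a replicate block. On simulated data with no GC trend the step called 80 of 100 altered genes at a fold of 1.5 and 94 of 100 at a fold of 2, with 8 false calls among 9868 genes. With a GC trend simulated in 2 DMSO libraries, nearer to these data, it called 50 and 78 of 100, with 7 false calls, and 76 and 89 of 100 once the trend was removed. Alternatives were other pseudocounts and filters, other scalings, limma-voom on recovered fragments (TMM factors), removal of each library's GC trend (spline, 5 degrees of freedom, GC of the longest coding transcript in GENCODE 29), a replicate block, and fits without each library. Positions are those of GENCODE 29 on GRCh38, and promoters are from RefSeq.

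The members and lists were chosen with earlier results of these data known. Named genes were all members, all network relatives, up to 2 largest rises and 2 largest falls past the threshold in each list, and the 5 genes nearest to MYC.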

Additional observations from a re-analysis of the deposited data

How the results depend on the processing

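MYC and MXD1 passed the test in the same direction under all 18 alternatives, with log2 differences of -1.35 to -1.15 (adjusted p at most 0.0195, limma) and 0.58 to 0.92 (adjusted p at most 0.0344). Members called higher numbered 1 as reported, 4 with the GC trend removed with or without the replicate block, 2 with equal library sums and 2 with the replicate block; members called lower numbered 1 as reported, and 2 with the GC trend removed, with or without the block, and against DMSO replicate 3 alone. Leaving out each library in turn gave 1 to 4 members higher and 1 to 2 lower. Over all genes, 1171 higher and 1331 lower became 2151 and 2287 with the GC trend removed, 2154 and 2237 with the replicate block and GC trend removed, 131 to 4030 higher and 176 to 3597 lower without each library in turn, 1916 higher against DMSO replicate 3 alone, and 713 higher at a mean of at least 5 FPKM. Equal library sums moved the median of all genes by 0.10, from 0.03 to 0.14, and the share of higher among called genes was 60.5% there, against 46.8% as reported. MYC-activated genes called lower numbered 13 to 51 without each library in turn, and those called higher 1 to 7, with 1 under quantile normalization and 4 with the block and GC removal.

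The sign of small differences, none of them called as reported, turned in these cases, and the cause was not tested. MAX was at 0.031 with equal library sums and 0.062 against DMSO replicate 3 alone. MXD3 was at 0.10 with the GC trend removed with or without the block, 0.059 with equal library sums, 0.13 against DMSO replicate 3 alone, and -0.13 to 0.012 without each library in turn. MXD4 was at 0.23 with the GC trend removed with or without the block, 0.00025 with limma-voom, 0.10 with equal library sums, 0.21 against DMSO replicate 3 alone, and -0.12 to 0.066 without each library in turn. MNT was at -0.057 under quantile normalization and -0.0046 to 0.095 without each library in turn. MYCBP was at 0.066 with equal library sums and -0.12 to 0.072 without each library in turn, and MYCBP2 at -0.015 against DMSO replicate 3 alone.

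The replicate numbers are shared across groups. In deviations from the group means, each corilagin library correlated best with its same-numbered DMSO library (0.280, 0.0787 and 0.339). For DMSO replicate 2, however, the best match was corilagin replicate 1 (0.279). With the GC trend removed, the same-numbered correlations were 0.0961, 0.0165 and 0.113. Corilagin replicate 1 then correlated slightly better with DMSO replicate 2 (0.0971) than with its same-numbered library. Whether the numbers mark pairs cannot be told from these values and is not in the labels, so the main test took none. The replicate block called 1547 genes higher and 1330 lower, and added MGA to the members called higher. With 3 libraries a group, differences of the size seen for MXI1 or MGA could pass or miss the threshold by the choice of DMSO libraries.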
